A study of Caenorhabditis elegans with 2 samples.

Results

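Caenorhabditis elegans has 6 vitellogenin genes, vit-1 to vit-6, and listed regions of PHA-4 immunoprecipitation signal were read at each of them. The genes were taken by name, and all 6 were found among 19973 protein-coding genes of the annotation. A region was counted for a gene when its summit, the base of highest signal, lay in the gene or within 5 kb of it. This gave 22 regions of 24890 in the pooled list, 19 of 30000 in replicate 1 and 30 of 30000 in replicate 2. These lists are relaxed and hold background regions as well as peaks, so a listed region is not by itself a bound site. The optimal list, which holds the regions that the authors kept after testing reproducibility, gave 0 of 839. PHA-4 is a forkhead transcription factor of the FoxA type. Chromatin immunoprecipitation followed by sequencing was carried out on whole young adult worms of strain OP37, with their sex given as pooled males and females. These worms carry unc-119(ed3) on chromosome III and the transgene wgIs37, from which PHA-4 is made as a fusion with eGFP. There were 2 biological replicates in 1 group, both with the same genotype, and no control immunoprecipitation was used here, so no comparison between conditions was possible.

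Vitellogenins are the yolk proteins of the worm. They are large lipid-carrying proteins related to apolipoprotein B, made in the intestine of the adult hermaphrodite, secreted into the body cavity and taken up by growing oocytes. In C. elegans their transcription is known to depend on short promoter elements named VPE1 and VPE2, the second of which holds a GATA site for intestinal factors of the ELT family. Males do not normally make yolk. A whole-worm sample given as both sexes would mix tissues and animals that do and do not transcribe these genes. The tissue in which a signal arose cannot be told apart.

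The genes are near one another in size but not in place. On build ce11 (WBcel235) vit-1 lies on chromosome X at 7727889 to 7733168 and vit-2 on X at 5101042 to 5106169, both on the plus strand. The vit-3 gene (X, 3567355 to 3572549) and vit-4 (X, 3558769 to 3563965) are on the minus strand with 3389 bp between them. The vit-5 gene is on X at 3403471 to 3408603 and vit-6 on chromosome IV at 8261157 to 8266459, both on the plus strand. Each is 5128 to 5303 bp long with 5 or 6 coding exons, and coding sequence makes up 91.8 to 94.4% of the gene.

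The 250 bases before each annotated 5′ end are shown because most of the promoter summits described below fell in them and because they carry the known yolk elements. They were read from the RefSeq assembly of WBcel235 and are written 5′ to 3′ on the strand of the gene, so that the last letter is next to the 5′ end. Capitals mark VPE1 (TGTCAAT) and the GATA site (TGATAA), with which VPE2 (CTGATAA) overlaps, on either strand. The stretches are chrX:7727639-7727888 for vit-1, chrX:5100792-5101041 for vit-2, chrX:3572550-3572799 for vit-3, chrX:3563966-3564215 for vit-4, chrX:3403221-3403470 for vit-5 and chrIV:8260907-8261156 for vit-6, with vit-3 and vit-4 read from the minus strand.
vit-1: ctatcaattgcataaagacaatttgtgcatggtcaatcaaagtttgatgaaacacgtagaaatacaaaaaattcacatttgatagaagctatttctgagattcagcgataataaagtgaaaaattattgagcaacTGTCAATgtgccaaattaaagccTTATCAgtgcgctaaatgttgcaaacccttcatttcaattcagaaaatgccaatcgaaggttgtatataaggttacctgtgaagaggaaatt
vit-2: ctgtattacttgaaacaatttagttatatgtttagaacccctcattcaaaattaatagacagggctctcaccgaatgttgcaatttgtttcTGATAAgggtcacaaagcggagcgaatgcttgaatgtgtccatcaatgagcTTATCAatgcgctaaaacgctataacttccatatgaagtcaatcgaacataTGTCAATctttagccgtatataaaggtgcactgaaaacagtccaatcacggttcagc
vit-3: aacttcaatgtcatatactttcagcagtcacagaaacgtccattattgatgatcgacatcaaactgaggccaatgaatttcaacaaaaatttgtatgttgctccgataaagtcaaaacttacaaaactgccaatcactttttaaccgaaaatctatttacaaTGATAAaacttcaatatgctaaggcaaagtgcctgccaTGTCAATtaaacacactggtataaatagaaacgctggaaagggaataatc
vit-4: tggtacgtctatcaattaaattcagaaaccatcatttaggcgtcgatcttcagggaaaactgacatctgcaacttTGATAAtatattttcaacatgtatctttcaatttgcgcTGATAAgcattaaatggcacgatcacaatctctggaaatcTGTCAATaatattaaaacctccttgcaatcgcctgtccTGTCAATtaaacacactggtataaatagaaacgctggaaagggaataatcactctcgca
vit-5: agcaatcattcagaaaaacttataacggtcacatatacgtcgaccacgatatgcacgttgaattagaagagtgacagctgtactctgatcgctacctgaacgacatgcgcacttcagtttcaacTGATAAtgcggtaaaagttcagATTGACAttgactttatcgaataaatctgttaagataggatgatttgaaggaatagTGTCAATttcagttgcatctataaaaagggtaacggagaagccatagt
vit-6: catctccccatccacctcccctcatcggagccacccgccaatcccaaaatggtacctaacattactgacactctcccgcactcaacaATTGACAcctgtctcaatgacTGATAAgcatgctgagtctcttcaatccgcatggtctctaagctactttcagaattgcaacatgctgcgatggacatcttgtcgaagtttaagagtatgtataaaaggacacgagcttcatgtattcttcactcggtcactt

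All 6 promoters held VPE1, and none held any of the 4 forkhead sequences searched. VPE1 was found in 6 of 6 vitellogenin promoters and in 4.81% of the same 250 bases of all 19973 genes. Both vit-4 and vit-5 had it more than once, which was so for 0.16% of all genes. VPE2 was found in 5 of 6, all but vit-3, against 7.20% of all genes, and the GATA site in 6 of 6, against 26.8%. VPE1 and VPE2, with its GATA site, were already known as elements of vitellogenin promoters. Their counts here were thus in large part given beforehand and are a description. The forkhead search took the sequence TGTTTAC with its variant TGTTTGC, and the sequence TATTTGT with its variant TATTTGC, on both strands. Of the 6 promoters 0 held any of them, against 23.5% of all genes. None was found in the 500 bases before the 5′ ends either, against 39.7% of all genes. A wider forkhead consensus, added after the sequences had been seen, allows A or G at its second base, G or T at the fifth, A or G at the sixth and C or T at the last. It was found in 2 of the 6 promoters, vit-3 and vit-4, against 61.7% of all genes. In vit-3 the matches included TATTTAC, 97 to 91 bases before the 5′ end. The repeat GAGAGAG and the E-box CACGTG were also in 0 of 6, against 6.16% and 4.94% of all genes. The letters TATAA, looked for after the sequences had been seen, began 27 to 43 bases before the 5′ end on the gene strand in all 6, and 15.2% of all genes held them in the last 60 bases. A match of letters is a description and does not show that a factor sits there, and the absence of one says only that these letters are not in the window.

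The promoters were not aligned, and only exact runs of letters were compared. The longest run shared by a pair of them was 7 to 11 bases for 14 of the 15 pairs. For vit-3 and vit-4 it was 50 bases, reaching up to the 5′ end of vit-3 and holding the VPE1 nearest to the gene in each. The share of G and C was 32.8 to 38.0% in vit-1 to vit-5 and 46.4% in vit-6, against a median of 33.2% over all genes.

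**Figure D1:**
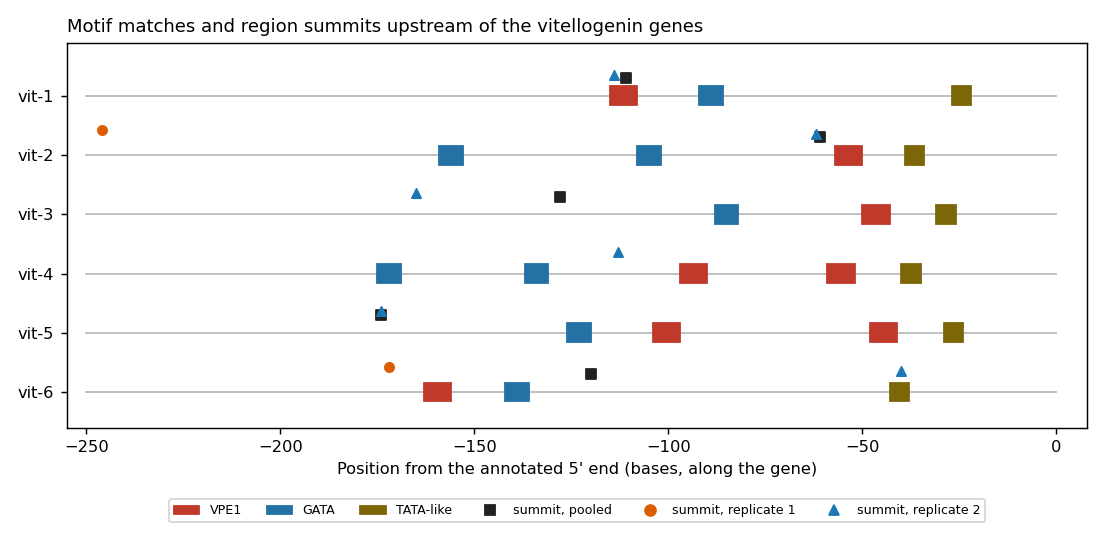
Motif matches and region summits in the 250 bases before the annotated 5′ end of each vitellogenin gene. The horizontal axis is the position in bases along the gene, red blocks are VPE1, blue blocks GATA and brown blocks TATAA, and the marks above each line are summits of the pooled list (squares), replicate 1 (circles) and replicate 2 (triangles). VPE1 and GATA blocks are present in all 6 lines, and vit-4 has a summit from replicate 2 alone.

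In the pooled list, 5 of the 6 genes had a summit in the promoter window, from 1000 bp upstream to 200 bp downstream of an annotated 5′ end, and vit-4 had none. Over all protein-coding genes the share was 38.9%. The strongest promoter summit of each lay 61 to 174 bp upstream. The signal value is the authors' own, its scaling is not stated, and it is used here only to rank regions within a list, with rank 1 the strongest. A q value of at most 0.05 was reached at vit-2, vit-5 and vit-6, that is at 3 of 6 genes, against 12.8% of all genes. On the X chromosome alone, 4 of the 5 vitellogenin genes had a pooled promoter summit, against 38.8% of its 2731 genes, and 2 of 5 had one with a q value of at most 0.05, against 12.4%.

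The vit-5 and vit-2 promoters had the strongest regions and nearly the same rank. At vit-5 the pooled summit lay 174 bp upstream with a signal of 26.1, rank 2830 and q = 0.0143. Replicate 2 had its summit at the same base (rank 3124, q = 0.00112), and replicate 1 had no region there. At vit-2 the pooled summit lay 61 bp upstream (signal 25.9, rank 2886, q = 0.0140), and that of replicate 2 lay 62 bp upstream (rank 2188, q = 0.000690). In replicate 1 the vit-2 summit was 246 bp upstream (rank 4213, q = 0.580). The 2 genes changed places between the pooled list and replicate 2, so their order is not settled.

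The vit-6 promoter came next and was, with vit-2, present in both replicates. Its pooled summit lay 120 bp upstream (signal 24.5, rank 3241, q = 0.0236), inside K07H8.16, a gene annotated as non-coding RNA on the opposite strand. The summit lay 172 bp upstream in replicate 1 (rank 7296, q = 0.696) and 40 bp upstream in replicate 2 (rank 4820, q = 0.00674). Only these 2 genes had a promoter summit in each replicate, against 24.4% of all genes.

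The remaining promoters were weaker in the pooled list. At vit-3 the pooled summit lay 128 bp upstream (signal 18.3, rank 6071, q = 0.181). That of replicate 2 lay 165 bp upstream (rank 4865, q = 0.00668), with nearly the same rank as vit-6 in that list (4820). At vit-1 the pooled summit lay 111 bp upstream (signal 12.9, rank 12943, q = 0.640), and replicate 2 had a summit 114 bp upstream (rank 9740, q = 0.125) and a lower one 325 bp upstream (rank 13807). At vit-4 replicate 2 alone had a region, 113 bp upstream, at rank 23224 with q = 0.607. This region, chrX:3563908-3564247, was thus only in the top 77.4% of its list.

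The replicates differed in how many of these promoters they listed. Replicate 2 had a summit in the promoter window of 6 of 6 genes, against 43.3% of all genes, and with a q value of at most 0.05 at 4 (vit-2, vit-3, vit-5 and vit-6), against 20.6%. Replicate 1 had one at 2 of 6, against 39.8%. The q values of replicate 1 were high throughout: 13 of its 30000 regions were at or under 0.05, of which 0 were on the nuclear chromosomes, against 7548 of 30000 in replicate 2. Read depths are unknown here, and the part of depth in this difference was not tested. Among genes with a promoter region, the median best rank in the pooled list was in the top 13.0% for the 5 vitellogenin genes and in the top 29.5% for all 7776 genes. In replicate 2 it was in the top 16.1% for the 6 genes and in the top 27.3% for all 8657. Over the gene or within 5 kb, replicate 1 went the other way, with the top 30.2% for 5 vitellogenin genes and the top 20.0% for all genes. There the pooled list had 11.6% against 21.4% and replicate 2 had 8.60% against 17.8%. These medians cover only genes that had a region.

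**Figure D2:**
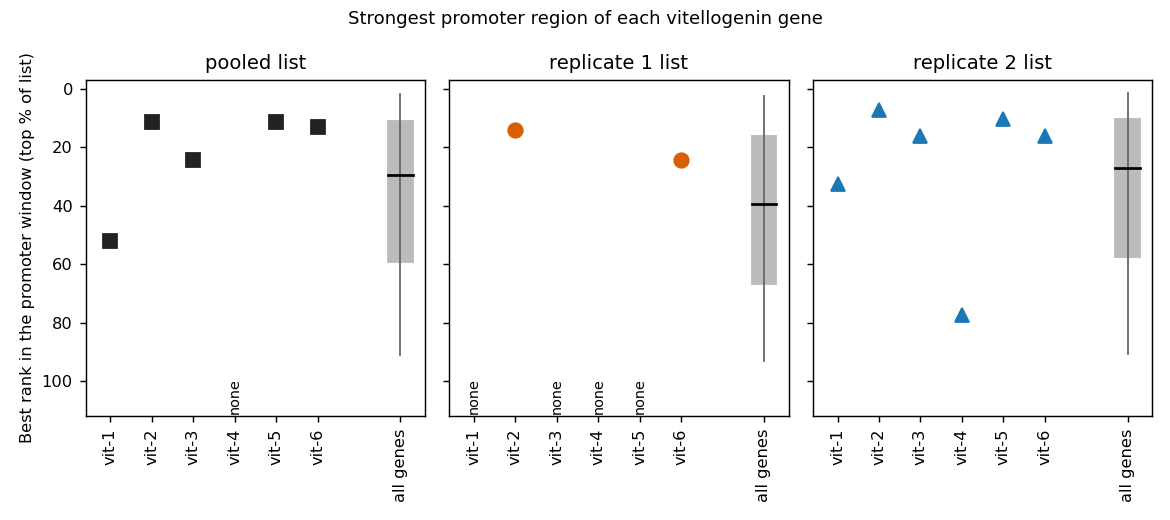
Rank of the strongest region in the promoter window of each vitellogenin gene, as percent of the list counted from the strongest (top of the axis), with a panel per list. The last column of each panel gives all protein-coding genes with such a region as the median (line), the quartiles (box) and the 5th to 95th percentiles (thin line). In the pooled list vit-2, vit-5 and vit-6 lie in the top 11.4 to 13.0% and vit-1 in the top 52.0%.

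Known yolk elements lay close to most of these summits. Of the 6 pooled regions with a summit in a promoter window (vit-6 has a second, described with its coding exons), 5 had VPE1 within 100 bp of the summit, against 4.87% of all 24890 pooled regions and 6.67% of the 839 optimal peaks. In the sequences above, the centre of VPE1 was 1 bp from the summit at vit-1, 7 bp at vit-2, 40 bp at vit-6, 73 bp at vit-5 and 81 bp at vit-3. VPE2 was within 100 bp of 4 and the GATA site of 5 of these 6 regions, against 7.06% and 22.4% of all pooled regions. The 4 forkhead sequences were within 100 bp of 0 of the 22 pooled regions at all 6 genes, against 19.4% of all pooled regions and 26.8% of optimal peaks. The wider consensus was within 100 bp of 8 of the 22, against 50.4% of all pooled regions and 59.4% of optimal peaks, and of 1 of the 6 promoter regions, at vit-3. The 6 promoter windows are a few places chosen by gene name. Summits in promoters lie in the part of the gene where VPE1 also lies, so their closeness was in part given beforehand. The shares over all pooled regions also take in regions outside promoters.

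None of the 6 genes had an optimal peak in the gene or within 5 kb, against 10.9% of all genes, or in the promoter window, against 3.52%. The weakest optimal peak had a pooled signal of 41.0, and the strongest pooled region within 5 kb of a vitellogenin gene had 30.6 (rank 1931). The nearest optimal summit lay 24331 bp from vit-4 and 32917 bp from vit-3, at the same peak, near F56B6.6. It was 59078 bp away for vit-2, 90088 bp for vit-1, 113199 bp for vit-5 and 166490 bp for vit-6.

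Many of the 22 pooled regions lay closer to the 5′ end of another gene. A region within 5 kb was found for 6 of 6 genes in the pooled list (85.1% of all genes), for 5 of 6 in replicate 1, all but vit-4 (94.1%), and for 6 of 6 in replicate 2 (87.7%), so that having one was common. Of the 22, 9 lay upstream of the vitellogenin gene, 5 in coding exons and 8 downstream. Here and below, the nearest 5′ end was looked for among protein-coding genes only. By this rule a vitellogenin gene had the nearest 5′ end for 10 of them and another gene for 12. Of the 6 regions with a q value of at most 0.05 (4065 of all 24890 pooled regions), 3 were of each kind. Non-coding RNA genes were left out. The 5′ end of K07H8.16 is closer to the pooled vit-6 promoter summit than that of vit-6. The strongest of the 22 (chrX:3576373-3576712, signal 30.6, q = 0.00440) lay 3994 bp upstream of vit-3 but 63 bp upstream of ckc-1, which encodes a choline kinase. Replicate 1 had a summit 59 bp upstream of ckc-1 (rank 9544) and replicate 2 had one 125 bp upstream of it (rank 2081). Further pooled regions followed inside ckc-1, at ranks 12021 and 21528.

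The region with the best rank near vit-1 was also beside a neighbour. It lay 2039 bp upstream of vit-1 and 129 bp upstream of spp-14, a gene of the saposin-like family, inside the non-coding RNA gene K09F5.9 (signal 25.9, rank 2893, q = 0.0144). Replicate 2 had a summit 173 bp upstream of spp-14 (rank 2969, q = 0.000840) and replicate 1 had summits 79 and 596 bp upstream of it (ranks 9516 and 9065), the second of them inside K09F5.6. Downstream of vit-2, 1 region lay 162 bp upstream of C42D8.1 (rank 4563, q = 0.0775) and 1 inside C42D8.9 (rank 22965). Downstream of vit-5, 1 lay 134 bp upstream of unc-78, which encodes an actin-interacting protein (rank 6772, q = 0.234), and 1 in dhs-27, a gene of the short-chain dehydrogenase family (rank 16216). The 3 pooled regions of vit-4 were all downstream and inside rgs-7, which encodes a regulator of G-protein signalling, at ranks 13626, 15978 and 23342. The weaker regions seen only in a replicate also included 3 downstream of vit-1 nearest to set-12 (ranks 24954, 24834 and 13633) and 1 upstream of vit-3 nearest to T27A10.5 (rank 27478).

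The 22 pooled regions were then looked for in each replicate. Of them, 14 overlapped a region of replicate 1 by at least 1 bp (63.6%), against 49.8% of all pooled regions. The count was 19 for replicate 2 (86.4%), against 79.7%, and 11 for both (50%), against 35.8%. Neighbouring regions of a gene can overlap the same replicate region, and the pooled list holds the reads of both replicates, so these shares are descriptions.

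**Figure D3:**
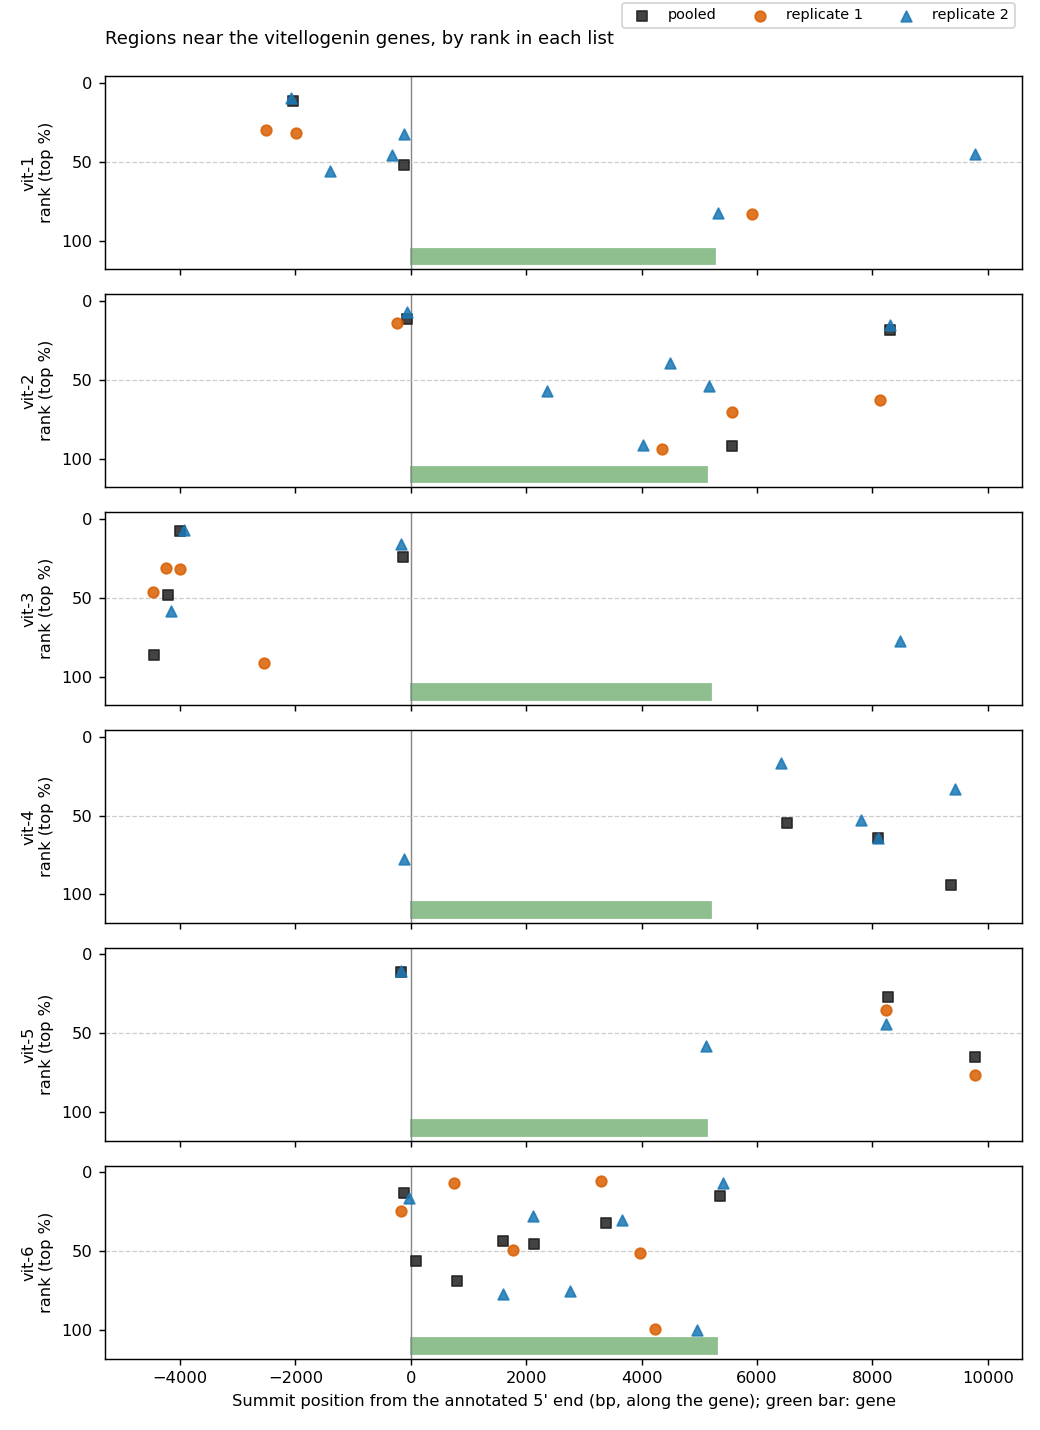
Every region within 5 kb of each vitellogenin gene, by summit position in bp along the gene (horizontal axis, 0 at the annotated 5′ end) and by rank as percent of its list from the strongest (vertical axis, strongest at the top). Squares are the pooled list, circles replicate 1 and triangles replicate 2, and the green bar is the gene. Coding sequence of vit-6 holds 5 summits in each list, while the bodies of vit-1, vit-3 and vit-4 hold none.

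The vit-6 gene was the only one of the 6 with summits in its coding exons in every list. It had 5 in the pooled list, 5 in replicate 1 and 5 in replicate 2, or 1.01 per kb of coding sequence in each, against 0.203, 0.338 and 0.239 per kb over all genes. The share of genes with 4 or more was 0.295% in the pooled list, 0.646% in replicate 1 and 0.441% in replicate 2. Among the 351 genes with 4000 to 6000 bp of coding sequence, which takes in all 6 vitellogenins, it was 3.42, 7.69 and 4.27%. In the other 5 genes the pooled list had 0 coding summits. Having 0 was common: of all 19973 genes it was so for 16018 in the pooled list, 13778 in replicate 1 and 15494 in replicate 2. Of the 351 genes of like length, 183, 267 and 195 had any coding summit in these lists. The vit-2 gene had 1 in replicate 1 and 3 in replicate 2, and vit-1, vit-3, vit-4 and vit-5 had 0 in every list. In vit-5, replicate 2 had 1 summit in untranslated exon sequence (rank 17444).

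The strength of the vit-6 coding summits differed between lists. In replicate 1 they included the strongest regions of any vitellogenin gene, at ranks 1594 and 2003 (signal 9.91 and 9.46), 3279 and 729 bp downstream of the 5′ end in coding exon 3, both above the vit-6 promoter at rank 7296. Their q values were 0.379 and 0.418. In replicate 2 the order was the other way round: the best coding summit had rank 8375 (2099 bp downstream, q = 0.0767), below the promoter at rank 4820. In the pooled list the coding summits had ranks from 7951 to 17073 with q values from 0.324 to 0.797, and the one nearest to the promoter lay 68 bp downstream, in coding exon 1 (rank 13976). Of the 5 coding regions in replicate 1, 2 overlapped one of replicate 2, those at ranks 14723 and 15232. The regions at ranks 1594 and 2003 overlapped none. No test of the difference between the replicates was made.

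A further region sat at the 3′ side of vit-6. Its pooled summit lay 55 bp past the end of the gene (signal 23.2, rank 3646, q = 0.0369). In replicate 2 the summit was 104 bp past the end and had the best rank of that gene (2082, q = 0.000720). Replicate 1 had no region there. Among protein-coding genes the nearest 5′ end was that of K07H8.5, 1810 bp downstream of the pooled summit.

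**Figure D4:**
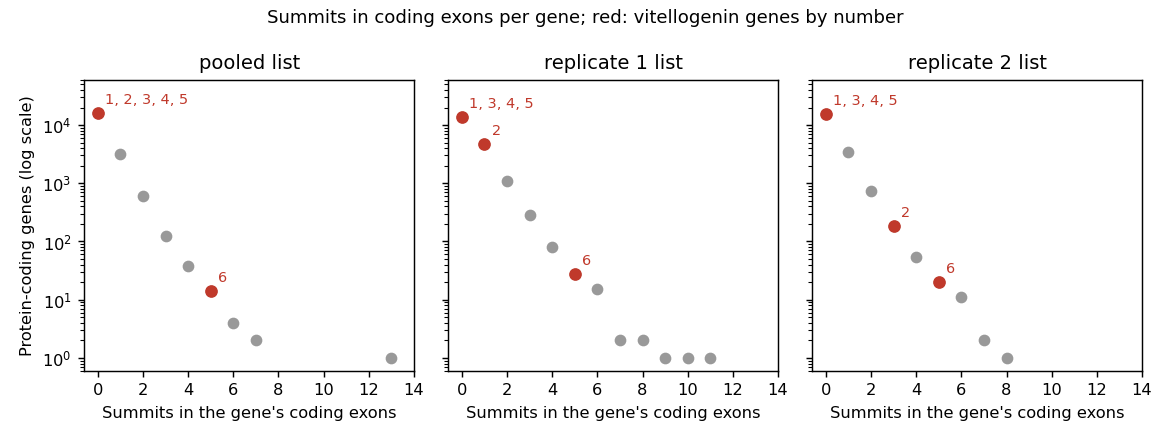
Number of protein-coding genes (log scale) with each number of summits in their coding exons, with a panel per list. Red points mark the counts at which the vitellogenin genes lie, labelled by gene number: vit-6 is at 5 in each list, vit-2 is at 1 in replicate 1 and at 3 in replicate 2, and the others are at 0.

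The gene bodies also differed in how much of their sequence is found once in the genome, which bears on whether a read can be placed. Of all 36-base words in the gene, 100% occurred once on either strand in vit-6, 80.7% in vit-1, 80.1% in vit-2, 42.4% in vit-5, 21.1% in vit-3 and 17.6% in vit-4. The median gene had 100%, and 395 of 19973 genes had a lower share than vit-4. With 50-base words the shares were 100% in vit-6, 87.2% in vit-1, 86.9% in vit-2, 50.9% in vit-5, 25.9% in vit-3 and 21.4% in vit-4. The words were shared within the family: 75.3% of those of vit-4 were also in vit-3 and 53.5% in vit-5, and vit-1 shared 19.3% of its words with vit-2. Between these groups, and between vit-6 and any other member, 0% were shared, and of 19938 other protein-coding genes 0 shared a word with a vitellogenin gene, leaving out 29 genes too short to be compared.

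The treatment of reads that match several places is not stated in these sources, and its part in the counts of coding summits was not tested. The vit-1 gene, with 80.7% of its words found once, had 0 coding summits in every list, as did vit-3, vit-4 and vit-5. The vit-2 gene, with 80.1%, had 0 in the pooled list, 1 in replicate 1 and 3 in replicate 2. In the 1 kb before the genes, 97.5 to 100% of the words were found once. The region at the vit-3 promoter (chrX:3572507-3572846) reached into the gene and had 81.0% of its words found once, and that of replicate 2 at the vit-4 promoter had 73.1%. The other 21 pooled regions had 100%.

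**Figure D5:**
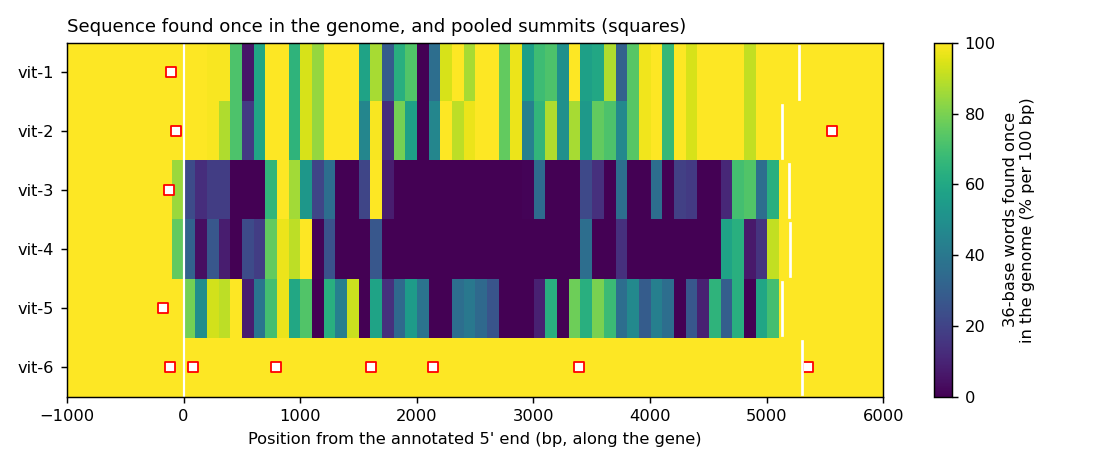
Percent of 36-base words found once in the genome, per 100 bp along each vitellogenin gene (colour), with the pooled summits as squares. The horizontal axis is the position in bp from the annotated 5′ end (white line), and the short white bars mark the ends of the genes. Low shares fill vit-3 and vit-4, vit-6 has 100% throughout, and 5 of the pooled summits drawn lie in its coding exons.

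The coding sequences fall into the same groups. Aligned over 4576 to 4838 bases, vit-3 and vit-4 were 99.0% identical, vit-4 and vit-5 97.8%, vit-3 and vit-5 97.7%, and vit-1 and vit-2 94.0%. Identity between these groups was 69.3 to 70.3%, and vit-6 had 61.8 to 62.5% with the others. In protein sequence vit-6 had 32.8 to 33.6% identity with the others, and vit-1 and vit-2 had 57.0 to 58.3% with vit-3, vit-4 and vit-5. The proteins are 1603 to 1651 residues long, and 0 of the 6 annotated coding sequences had an internal stop codon. Genes of 1 group had unlike promoter ranks in the pooled list: vit-3 was at 6071, vit-4 had no region and vit-5 was at 2830, while vit-1 was at 12943 and vit-2 at 2886.

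Genes that act on yolk were read from a list of 23: the receptor and the endocytic machinery of the oocyte (10), lipoprotein assembly (1) and known regulators of vitellogenin transcription (12). An optimal peak was in the promoter window of 2 of 23 (8.70%), against 3.52% of all genes, and a pooled region with a q value of at most 0.05 in that of 10 of 23 (43.5%), against 12.8%. Within 5 kb, 6 of 23 had an optimal peak (26.1%), against 10.9% of all genes. The list was put together with earlier results of these data known, so these shares are descriptions. At rab-7, which encodes a small GTPase of late endosomes, the peak lay 774 bp upstream (signal 72.6, rank 103), with rank 721 in replicate 1 and 87 in replicate 2. It lay in the promoter windows of 3 genes, and W03C9.5 was nearer to its summit. At rme-1, which encodes an EH-domain protein needed for the return of the yolk receptor to the cell surface, the peak lay 678 bp upstream (signal 51.7, rank 402), with rank 68 in replicate 1 and 872 in replicate 2. No other gene had that peak in its promoter window. With a window of 500 bp upstream to 100 bp downstream, 0 of 23 had an optimal peak. By role, the pooled regions with a q value of at most 0.05 were at 6 of the 10 receptor and endocytosis genes and at 4 of the 12 regulators, and the 1 assembly gene had none. The 6 were rme-1, rab-5, rab-7, rab-10, rab-11.1 and chc-1. The yolk receptor gene rme-2 was not among them, and neither was rme-8. Both had no region in the promoter window in the pooled list or in either replicate.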

How the data were processed

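The deposited peak lists on ce11 were used: a relaxed list of peaks and background regions for each replicate, the same from the pooled alignments of both, and the optimal list, as the deposited notes describe them. The signal value of each region is the authors' own, with its scaling not stated, and the lists also give the authors' −log10 of the q value. The aligner, the peak caller and the read depth are unknown: not given in the sources used here. The ce10 lists were not used. Signal was ranked within each list. Gene positions came from Ensembl release 115 on WBcel235, and a region was placed by its summit. Motifs and 36-base words were searched on both strands of the RefSeq genome, and coding sequences were aligned with Biopython 1.88 under Python 3.11.15. The assignment of regions was tested on simulated data. The text names all 6 vitellogenin genes, the protein-coding gene nearest to each of their regions, and yolk pathway genes whose promoter window held an optimal peak. The members, the lists and the motifs were chosen with earlier results of these data known. With 1 group no test between groups was made, and counts are set beside those of all protein-coding genes. Alternatives were other distances, promoter windows, q values, overlap rules and each replicate alone, and a wider forkhead consensus added after the data were seen.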

Additional observations from a re-analysis of the deposited data

How the results depend on the processing

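The count of 22 pooled regions fell to 12 within 1 kb and 13 within 2 kb, and was 19 to 30 in a replicate alone. It was 13 in the upper 50% of the list by signal, which holds 50% of all pooled regions by its definition. Where q was at most 0.05 it was 6, and 4065 of all 24890 pooled regions passed that limit. Promoter summits at 5 genes became 3 where q was at most 0.05 and 2 to 6 in a replicate alone, 2 being that of replicate 1. The 11 regions that overlapped both replicates became 5 with summits at most 100 bp apart and 7 with an overlap of at least 50% of the region. The 2 yolk pathway genes with an optimal peak became 0 in the narrow promoter window, since both summits lie more than 500 bp upstream, and 1 to 3 among the strongest regions of a replicate alone. The count of genes with a region nearby was 5 or 6 under each alternative. A pooled region within 5 kb was also found for 85.1% of all genes, and the shares for other distances, q values and signal limits were not computed. Where q was at most 0.05, the regions counted for vit-1 and vit-3 were those that, among protein-coding genes, lay nearest to spp-14 and ckc-1. The count of genes with an optimal peak was 0 within 1, 5 and 10 kb, against 10.9% of all genes within 5 kb. No paired analysis was possible because there was only 1 group. The read depth is unknown, no control immunoprecipitation was used, and replicate 1 has no nuclear region with a q value of at most 0.05, so a missing region there does not show that binding was absent.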

Other observations

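As in vit-6, 5 or more coding summits were found in 21 genes in the pooled list, 50 in replicate 1 and 34 in replicate 2. Of 19973 protein-coding genes, 6 had 5 or more summits in coding exons in each of the pooled list, replicate 1 and replicate 2, a limit set at the count of vit-6 itself after it was seen. They were vit-6, ret-1, eel-1, din-1, vab-10 and let-805, also named after their values were seen. All of these but vit-6 have longer coding sequence, from 8355 to 23447 bp. The ret-1 gene, which encodes a reticulon of the endoplasmic reticulum, had the most, with 13 in the pooled list, 11 in replicate 1 and 6 in replicate 2. Some genes with shorter coding sequence than the 4953 bp of vit-6 came close: icl-1 (2912 bp) and pyc-1 (3525 bp) each had 5 in the pooled list, 4 in replicate 1 and 6 in replicate 2.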
